A study of Mus musculus with 5 samples.

Results

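The actin family of the mouse comprises 6 genes, Actb, Actg1, Acta1, Acta2, Actc1 and Actg2, and its transcripts were followed in mandibular condyle cartilage, which covers the head of the jaw joint. Members were the rows of the deposited value table that the platform annotation gives to exactly 1 of these symbols. This gave 5 rows for 5 genes, 1 row each, among 21789 rows for 19938 genes with a single symbol. Actg1 had no row of its own. The family was chosen by name with the knockout and wild-type signals of these same 5 arrays already known, so the levels and changes of its members are given as a description. Counts of members passing a threshold are printed beside the share over all rows, and nothing is concluded from them.

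The study compared mice lacking discoidin domain receptor 1, a receptor tyrosine kinase for collagen encoded by Ddr1, with wild-type mice. The knockout group held mice 2 and 5 and the wild-type group mice 3, 4 and 6, all of strain 129/Sv, with 1 array of total RNA per mouse. Age, sex and the construction of the knockout allele were not given in the sources used here, and nothing says whether the knockout affects only some cell types. The arrays were Affymetrix mouse gene 1.0 ST arrays, whose probes lie along the transcript, and levels are log2 RMA signals made by the authors. The array names carry 2 dates, here called date 1 (knockout 2 and wild type 3) and date 2 (knockout 5 and wild types 4 and 6). A change is the knockout mean less the wild-type mean, in log2 units.

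Actins polymerise into the filaments that shape cells and, with myosin, produce force. Actb and Actg1 encode the cytoplasmic β- and γ-actins of nearly all cells. Acta1 and Actc1 encode the α-actins of the skeletal and cardiac sarcomere, and Acta2 and Actg2 the α- and γ-actins of smooth muscle, of which Acta2 is also made by pericytes and myofibroblasts. In chondrocytes, actin organisation is tied to cell shape and to the differentiated state. Unpolymerised actin holds back MRTF, the cofactor of serum response factor (SRF), and SRF binds a sequence called the CArG box in the promoters of many actin and muscle genes.

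The promoter stretches of the 3 measured sarcomeric and smooth muscle genes with an entry in the RefSeq promoter table are shown because the CArG box is what these genes are known to share. Bases in capitals are CArG boxes, and each sequence is written 5′ to 3′ along the gene, on the minus strand of GRCm38.p6, and ends before the start of transcription in that table.
Acta1, chr8:123894819-123894868: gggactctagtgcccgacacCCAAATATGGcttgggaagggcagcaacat
Actc1, chr2:114052893-114052942: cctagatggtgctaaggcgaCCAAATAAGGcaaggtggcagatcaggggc
Acta2, chr19:34255378-34255477: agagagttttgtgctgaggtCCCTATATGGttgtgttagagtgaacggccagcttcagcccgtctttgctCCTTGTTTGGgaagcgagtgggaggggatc

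The exact box of Acta1 lay 73 to 64 bases before the start and that of Actc1 47 to 38 bases before it. With up to 1 mismatch allowed, the 250 bases searched held 3 boxes for Acta1 and 4 for Actc1, the exact box included. For these genes only the exact box is in capitals. Acta2 had no exact match in the 250 bases searched, and the capitals mark its 2 matches with 1 mismatch each, at 84 to 75 and at 34 to 25 bases before the start. The annotated Acta2 gene extends further upstream, to chr19:34255585, so its positions and the bases searched count from a start inside the gene. The CArG box reads the same on both strands, so 1 search covered both. Of all 32851 promoters in the table, 1.47% held an exact box in the same 250 bases and 18.6% a box with up to 1 mismatch. Of the 4 family members in the table, Acta1, Actc1 and Actg1 held an exact box. Actb and Actg2 had no entry. A match is a description of the letters, and binding by SRF was not measured.

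Some properties of the arrays bear on every value below. The standard deviation of all named rows lay between 1.01 and 1.03 in the wild types but was 0.814 for knockout 2 and 0.926 for knockout 5. Across rows, knockout 2 correlated with the wild-type arrays at 0.802 to 0.826 and knockout 5 at 0.902 to 0.928, against 0.983 to 0.992 among wild types. The 2 knockout arrays correlated with each other at 0.790, the lowest of all pairs. At least 2 of the 5 arrays shared exactly the same value in 87.0% of rows, which the median polish step of RMA can produce even where probes differ. Ddr1 itself did not separate the groups clearly, with 6.02 in every wild-type mouse and 5.96 and 5.80 in the knockouts (change -0.14, SE 0.058, limma adjusted p = 0.382), and the probe positions were not used here, so it does not check the labels. The cartilage markers Col2a1, Acan and Sox9 were among 15 of 15 cartilage genes with a row of their own. Having a row is set by the platform annotation, so this does not check the tissue. No detection call was used, so none of these signals is shown to lie above background.

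The cytoplasmic β-actin row had the lowest change of the family, with less signal in both knockout mice. Wild types 3, 4 and 6 had Actb signals of 6.75, 6.56 and 6.56, knockout 2 had 4.51 and knockout 5 had 5.48. Both knockout mice lay below every wild-type mouse, and they differed from each other by 0.97. The group means were 4.99 ± 0.687 (SD, n = 2) and 6.63 ± 0.110 (SD, n = 3), a change of -1.64 (SE 0.337), or a 3.11-fold lower signal. Only 9 of the 21789 rows had a lower change. The change was -2.25 within date 1 and -1.09 within date 2, and it was -1.68 after quantile normalisation, -1.47 under cyclic loess and -1.59 once the arrays were centred and scaled. Against the wild-type mean, the signal was 4.35-fold lower in knockout 2 and 2.22-fold lower in knockout 5.

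Actg1, the other cytoplasmic actin, could not be followed on its own. On 4 further rows the annotation names both Actg1 and Actb, and these were not members. Of these 4 rows, 2 held a single value for all 5 arrays, and the others had changes of -0.16 and 0.052. On the row with -0.16, knockout 2 was at 5.14, knockout 5 and wild types 3 and 4 at 5.39 and wild type 6 at 5.50. A difference as large as that of the Actb row was not seen on the rows shared with Actg1. The actin genes are close to each other in coding sequence, and the probe sequences were not used here, so how far a row reads transcripts of another actin was not tested.

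**Figure D1:**
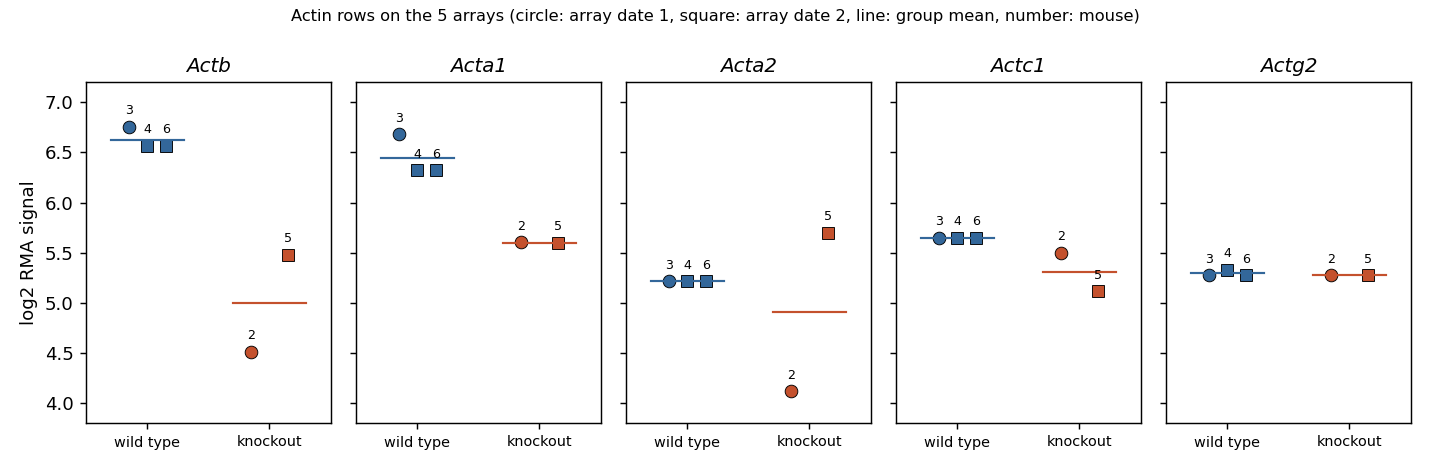
Log2 RMA signal (vertical axis) of the 5 actin rows in the 3 wild-type and 2 knockout mice, with a point per array numbered by mouse and a line at each group mean; circles are date 1 and squares date 2. Both knockout mice lie below all wild-type mice for Actb, Acta1 and Actc1, and on either side of them for Acta2; signals of different genes come from different probes and their heights are not comparable between panels.

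The skeletal muscle α-actin row was lower in both knockout mice. Wild types 3, 4 and 6 had Acta1 signals of 6.68, 6.32 and 6.32, knockout 2 had 5.60 and knockout 5 had 5.59. The groups did not overlap. The knockout mice differed by 0.0086 as deposited, and by 0.134 after quantile normalisation, 0.163 with centring and scaling and 0.212 under cyclic loess. The change was -0.84 (SE 0.141), a 1.79-fold lower signal, from 6.44 ± 0.207 (SD, n = 3) to 5.60 ± 0.0060 (SD, n = 2). It was -1.08 within date 1 and -0.73 within date 2, where wild type 3 of date 1 was the highest of the wild types, and -0.66 to -0.76 under the other scalings of the arrays. A lower change was seen in 2.13% of all rows.

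The cardiac α-actin row was lower to a smaller extent. Every wild-type mouse had an Actc1 signal of 5.65, knockout 2 had 5.50 and knockout 5 had 5.11. Both knockout mice lay below the wild-type value, knockout 5 further than knockout 2. The change was -0.35 (SE 0.130), a 1.27-fold lower signal, with -0.15 within date 1 and -0.54 within date 2. The change was -0.23 after cyclic loess, where the groups overlapped. Centring and scaling the arrays gave -0.27, again with overlap. The identical wild-type values leave a wild-type spread of 0, which does not measure the spread between mice.

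The smooth muscle α-actin row split the knockout mice. Every wild-type mouse had an Acta2 signal of 5.21, knockout 2 had 4.11 and knockout 5 had 5.70. Knockout 2 lay 2.14-fold below the wild-type value and knockout 5 lay 1.40-fold above it, so the groups overlapped and the mean change of -0.31 (SE 0.534) describes neither mouse. The change was -1.10 within date 1 and 0.48 within date 2. The gap of 1.58 between the knockout mice was exceeded in 1.76% of all rows. Over the table, knockout 2 lay below all wild types and knockout 5 above them in 8.94% of rows.

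The smooth muscle γ-actin row was nearly flat. Actg2, the actin of visceral smooth muscle, was at 5.27 in both knockout mice and in wild types 3 and 6, and at 5.33 in wild type 4. The 5 arrays thus held only 2 distinct values. Its change of -0.018 (SE 0.027) turned to 0.024 after quantile normalisation, 0.058 under cyclic loess and 0.018 once the arrays were centred and scaled, so no direction can be given.

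**Figure D2:**
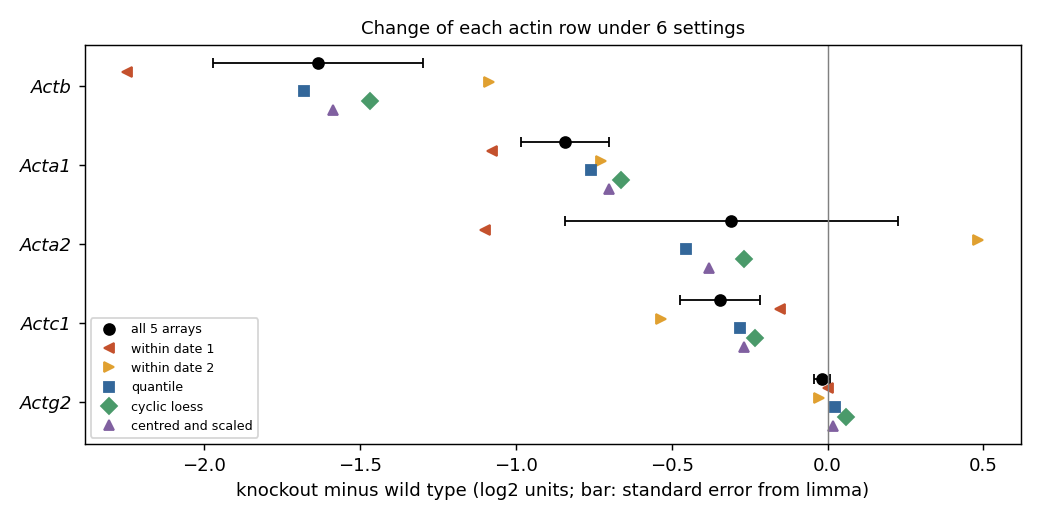
Change of each actin row, knockout minus wild type in log2 units (horizontal axis), over all 5 arrays with limma's standard error as a bar, within each array date, and after 3 further scalings. Actb ranges from -2.25 to -1.09 and Acta1 from -1.08 to -0.66, while Acta2 runs from -1.10 to 0.48.

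Across the family, 0 of the 5 rows passed limma's test at adjusted p under 0.05, against 3.63% of all rows (1.55% as rises and 2.07% as falls), and 2 of the 5 had an unadjusted p under 0.05, against 18.0% of all rows. The knockout mice lay below all wild-type mice on 3 of the 5 rows, a pattern found in 17.9% of all rows. These counts come from the contrast that was known when the family was chosen, so they are not tests of the family. The median change of the members was -0.35, beside -0.00023 for all rows. It was -1.08 within date 1 and -0.54 within date 2, beside 0 for all rows within each date. Rows whose mean signal lay above the median of all rows leaned to falls. Their median change was -0.13, beside -0.59 for the 4 members among them. A change of -1 or lower occurred in 1.02% of rows, Actb among them.

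The count moved from 0 to 3 when knockout 2 or knockout 5 was left out. In both fits the spread of the lone knockout array was taken from the wild types, and for Acta2 and Actc1, which were among the 3 rows, the wild-type values were identical, so that count is no evidence of a difference. The Acta2 change was 0.48 without knockout 2 and -1.10 without knockout 5. With any wild-type array left out the count stayed at 0. In whole tissue, fewer cells of a type and less RNA per cell cannot be told apart.

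**Figure D3:**
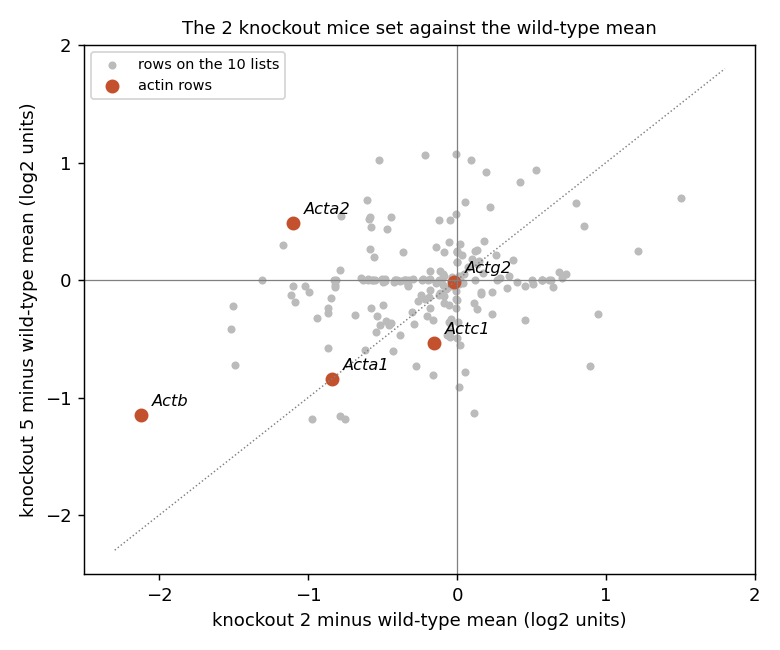
Difference from the wild-type mean in knockout 2 (horizontal axis) and in knockout 5 (vertical axis), in log2 units, for the 5 actin rows and for the 206 rows on the 10 related lists; the dotted line marks equal differences. Acta1 lies on the line at -0.84 and -0.85, Actb at -2.12 and -1.15, and Acta2 in the quadrant where knockout 2 is lower and knockout 5 higher.

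For the 3 members whose values spanned at least 1 on the log2 scale, the rows with the most similar profile over the 5 arrays were found by root mean square distance after centring each row on its own mean, among 18811 rows. Closest to Actb were Hmcn1 (distance 0.148), which encodes the extracellular matrix protein hemicentin 1, Cspp1 (0.157), a centrosome and cilium gene, and Rln3 (0.174), which encodes the peptide relaxin 3. Closest to Acta1 were Grhpr (0.0089), a glyoxylate reductase, Ddrgk1 (0.034) and Foxred2 (0.044). Closest to Acta2 were the anion exchanger gene Slc4a3 (0.013), Mid1ip1 (0.015) and Zfp775 (0.018). With 5 arrays and repeated values within them, likeness of profile is a description only.

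Genes that build on or regulate actin, reference genes, and markers of muscle and cartilage were read from 10 lists. These held 206 rows of 180 genes, of which 1 rose and 7 fell in limma, 3.88% against 3.63% of all rows. Of the 7 falls, 3 were cartilage genes. After quantile normalisation, cyclic loess, centring and scaling, or the array date as a block, 0 of the list rows passed, with 33, 33, 31 and 38 at an unadjusted p under 0.05. The 8 rows that passed kept their direction in each of those fits and within each date. Without wild type 3, 4 or 6 none of the list rows passed in limma, with 22, 22 and 26 at an unadjusted p under 0.05. The count of list rows passing was higher without knockout 2 or knockout 5. In those fits the spread came from the wild types alone, so that count is no evidence of a difference.

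Genes of actin assembly and turnover held 2 falls and 1 rise among 41 rows of 37 genes, with 38 rows not passing and a median change of -0.021. Over all rows, 2.07% passed as falls and 1.55% as rises. Cttn encodes cortactin, which stabilises branched filaments. Its wild-type signals were 6.17, 5.99 and 5.91 and its knockout signals 5.05 and 4.85, a change of -1.08 (SE 0.114, limma adjusted p = 0.0403). Capg, which caps filament ends, was at 4.38 and 4.52 against 4.90 in each wild type, a change of -0.45 (SE 0.049, limma adjusted p = 0.0413). Wasl, the N-WASP activator of the Arp2/3 complex, was at 6.28 and 6.23 against 6.01 in each wild type, a rise of 0.24 (SE 0.023, limma adjusted p = 0.0358). In these 3 rows the groups did not overlap, and for Capg and Wasl the wild-type spread is 0 because the values are identical.

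Actin-related and actin-like proteins held 1 fall among 15 rows, against falls in 2.07% of all rows, with a list median of -0.14. Actr5, a subunit of the INO80 chromatin remodeller, had 5.37 in every wild-type mouse and 4.82 and 4.93 in the knockouts, a change of -0.49 (SE 0.038, limma adjusted p = 0.0270). The identical wild-type values of Actr5 leave a wild-type spread of 0, which does not measure the spread between mice. Actl9 and Actr8 had changes of -0.19 (limma adjusted p = 0.0596) and -0.18 (limma adjusted p = 0.146).

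Cytoplasmic stress fibre proteins held no call among 30 rows of 21 genes in limma, against 3.63% of all rows, and had a median of -0.059. An unadjusted p under 0.05 was found in 5 of the rows, against 18% of all rows. The lowest p belonged to a row of Myh9, the heavy chain of non-muscle myosin II, which was higher by 0.72 (SE 0.115, limma adjusted p = 0.0734). The other Myh9 row went the other way, with a change of -0.31 (SE 0.285, limma adjusted p = 0.490), so no direction can be given for this gene. The tropomyosins Tpm1 and Tpm2 had -0.29 (limma adjusted p = 0.154) and -0.35 (limma adjusted p = 0.204). Knockout 2 lay below all wild types on 16 of the 30 rows and knockout 5 on 7, while knockout 5 lay above them on 9. Over all rows these patterns were found in 40.3%, 30.5% and 31.9%.

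Actin folding and modification, the list of the chaperonin CCT, prefoldin and the actin-modifying enzymes, also held no call among 16 rows, against 3.63% of all rows. In limma 1 of the 16 had an unadjusted p under 0.05, against 18% of all rows, and the list median was 0.011. The prefoldin subunits Pfdn2 and Pfdn5 had changes of -0.97 (limma adjusted p = 0.394) and -0.50 (limma adjusted p = 0.283), and Vbp1, another subunit, had 0.63 (limma adjusted p = 0.149). Knockout 2 had 4.26 for Pfdn2 and knockout 5 had 5.36, so its change was -1.85 within date 1 and -0.26 within date 2.

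SRF, its cofactors and its targets held 1 fall among 22 rows of 20 genes, against falls in 2.07% of all rows. The median change of the list was -0.20, with 13 rows below 0, against 50.0% of all rows. The fall was that of the immediate-early gene Egr1, with 5.80 in every wild-type mouse and 5.32 and 5.45 in the knockouts (change -0.41, SE 0.047, limma adjusted p = 0.0436). The identical wild-type values of Egr1 leave a wild-type spread of 0, which does not measure the spread between mice. Ccn1, a matricellular protein gene, was at 5.42 and 5.05 against 6.12, 6.38 and 6.12, a change of -0.97 (SE 0.161, limma adjusted p = 0.0793) that did not pass. Tagln2, an actin-binding protein of the calponin family, had 3.76 for knockout 2 and 5.05 for knockout 5, and a change of -0.86 (SE 0.443, limma adjusted p = 0.400). The median of the list was -0.073 within date 1 and 0 within date 2.

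Actb is itself used as a reference gene in expression assays. Of 17 further genes used that way, 12 had rows of their own, 22 rows in all. None of the 22 passed in limma, against 3.63% of all rows. An unadjusted p under 0.05 was found in 0 of them, against 18.0%, and groups that did not overlap in 0, against 31.3%. Their changes ran from -0.66 for a row of Rplp0 to 0.56 for a row of Ywhaz, both with limma adjusted p = 0.400, with a median of 0.077. Pgk1, a glycolytic enzyme gene, had 0.31 in 1 of its rows (limma adjusted p = 0.400). The Actb change of -1.64 lay below the lowest of these.

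Markers of the tissues whose actins are in the family were read beside the muscle actins. Skeletal sarcomere genes, which go with Acta1, held 0 calls among 23 rows in limma, against 3.63% of all rows. An unadjusted p under 0.05 was found in 4 of them, against 18% of all rows. Of the 23 rows 19 had a change below 0, against 50.0% of all rows. The list median was -0.12, beside -0.00023 for all rows. It was -0.13 for all rows above the median level, to which the list was not limited. Both knockout mice lay below all wild types on 5 of the 23 rows, against 17.9% of all rows. Their mean log2 signal lay between 5.69 and 5.78 in the wild types, and was 5.45 for knockout 2 and 5.59 for knockout 5. The lowest change was that of Tnnc2, the fast skeletal troponin C, with wild-type signals of 6.78, 6.77 and 6.92 and knockout signals of 5.33 and 6.10 (change -1.11, SE 0.268, limma adjusted p = 0.152). The slow-fibre genes Tnnt1 and Myh7 had -0.72 (limma adjusted p = 0.114) and -0.21 (limma adjusted p = 0.0574), and Ckm, the muscle creatine kinase, had -0.0056. The lowest marker value on any array was 3.83, below the array medians of 5.03 to 5.14 over named rows. Without a detection call, these values do not show that the markers were expressed. The part of muscle in the lower Acta1 signal was not tested.

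Smooth muscle and mural cell genes, which go with Acta2 and Actg2, held 0 calls among 16 rows in limma, against 3.63% of all rows. An unadjusted p under 0.05 was found in 5 of them, against 18.0% of all rows. There were 12 changes below 0 and 2 above it. The list median was -0.12, beside -0.00023 for all rows. It was -0.13 for all rows above the median level, to which the list was not limited. The mean log2 signal of the list lay between 5.43 and 5.46 in the wild types, and was 5.23 for knockout 2 and 5.37 for knockout 5. Knockout 2 lay below all wild types on 10 of the 16 rows and knockout 5 on 6, against 40.3% and 30.5% of all rows, and 1 row showed the split seen for Acta2, with knockout 2 below and knockout 5 above. Tagln, the transgelin of smooth muscle, had signals from 4.94 to 5.07 in the wild types, 3.89 for knockout 2 and 4.94 for knockout 5. Myh11, the smooth muscle myosin heavy chain, and Myocd, the muscle cofactor of SRF, each held 1 value on all 5 arrays. Kcnmb1, Mylk and Smtn had the lowest p, with changes of -0.52 (limma adjusted p = 0.0557), -0.16 (limma adjusted p = 0.0574) and -0.22 (limma adjusted p = 0.0680). The lowest value of any row was 3.85, and the part of these cells in the Acta2 values was not tested.

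Cardiac muscle genes, which go with Actc1, held 0 calls among 10 rows in limma, against 3.63% of all rows, and had a median of -0.088. An unadjusted p under 0.05 was found in 1 of the rows, against 18% of all rows. Of the 10 changes 6 were below 0 and 4 above it, the highest 0.19 for the atrial light chain gene Myl7. Mybpc3, the cardiac myosin-binding protein, had the lowest change of -0.64 (limma adjusted p = 0.264), and Nppb and Myh6 had -0.20 and -0.19, both with limma adjusted p = 0.400. Their mean log2 signal lay between 5.73 and 5.75 in the wild types, and was 5.65 for knockout 2 and 5.63 for knockout 5. The part of these markers in the Actc1 values was not tested.

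Cartilage genes held 3 falls among 15 rows, those of Sox9, Comp and Col9a3, against falls in 2.07% of all rows. The list median was -0.32, beside -0.00023 for all rows. It was -0.13 for all rows above the median level, to which the list was not limited. Col9a3, a chain of collagen IX, had -0.61 (limma adjusted p = 0.0433), Sox9, the transcription factor of chondrocyte identity, -0.42 (limma adjusted p = 0.0242), and the matrix protein gene Comp -0.41 (limma adjusted p = 0.0341). Cyclic loess left -0.37, -0.27 and -0.23, and none of these rows passed there (limma adjusted p = 0.181, 0.124 and 0.167). The cartilage median was -0.48 within date 1 and -0.082 within date 2, beside -1.08 and -0.54 for the actins.

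**Figure D4:**
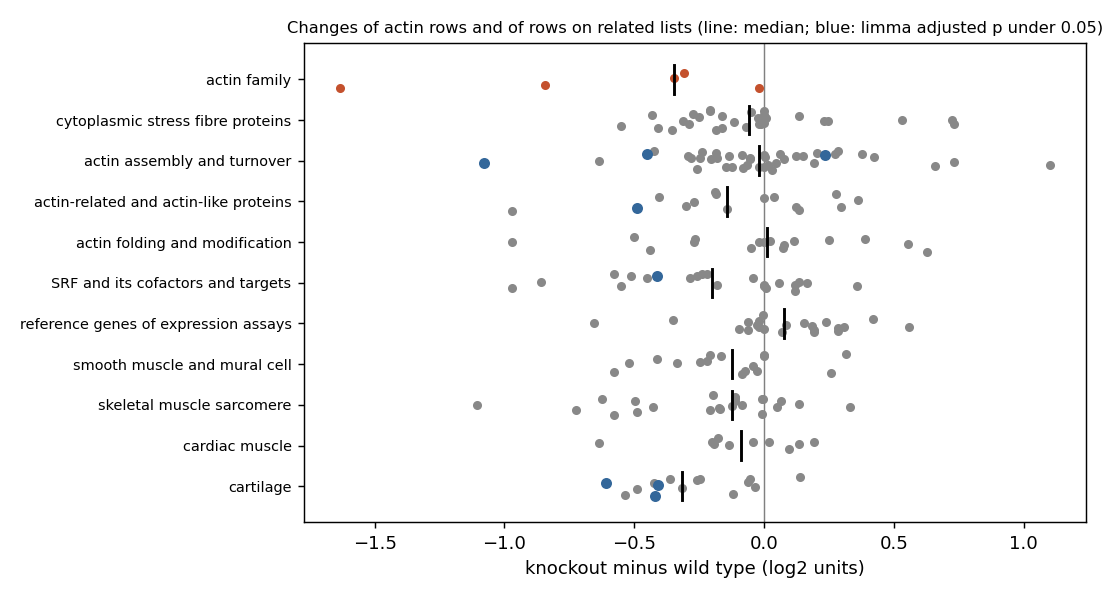
Change in log2 units (horizontal axis) of the 5 actin rows, in red, and of the rows on each related list, in grey, with rows past limma's adjusted threshold in blue and a vertical line at each median. The actin median of -0.35 lies beside list medians from -0.32 for cartilage to 0.077 for reference genes, and the Actb point at -1.64 is lower than every list row.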

How the data were processed

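The deposited table holds log2 signals made by the authors with Affymetrix Expression Console and RMA, per the submitters' processing notes; versions and build were not given in the sources used here. It has 35556 rows, of which 21789 had 1 symbol in the platform annotation, 1621 several and 12146 none. Every sample column was mapped to a sample. The knockout and wild-type arrays were fitted with limma (version 3.58.1, R 4.3.3; lmFit and eBayes, two-sided) over the 21789 rows, each row a feature, with Benjamini-Hochberg adjustment over all of them and a threshold of 0.05. The labels do not say more of the mice than a number each, so p-values measure the spread between these samples, with 2 and 3 arrays limiting precision. In the 38.6% of rows with 3 identical wild-type values, the wild-type part of that spread is 0 and does not measure the spread between mice. The fit was tested on simulated data. Those held no repeated values and the same spread in both groups, unlike the deposited rows, so that test does not bear on the calls.

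The members and lists were chosen with earlier results of these data known. Named were every member row, all list rows that passed and the 3 of lowest p in each list, the 3 rows nearest in profile to each member spanning at least 1, and Ddr1. Tagln, Myh11, Myocd, Ckm, Myl7, Col2a1 and Acan, the other Myh9 row, and the row ranges of other lists, were singled out after their values were seen. Some genes, such as Tagln, are on more than 1 list. Alternatives covered the rows tested, array date, scaling, dim rows, variance trend and each array left out. Promoters came from RefSeq (GRCm38.p6).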

Additional observations from a re-analysis of the deposited data

How the results depend on the processing

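No paired analysis was possible because the groups share no replicate number. The count of actin rows passing, 0 in the main fit, was also 0 with 1 row per gene, all rows of the table, array date as a block, the 3 scalings, rows above the median level and an intensity trend, and ranged from 0 to 3 with each array left out. The median actin change of -0.35 was -0.46 after quantile normalisation, -0.59 among rows above the median level (where Acta2 dropped out), -1.08 within date 1 and -0.54 within date 2, and ranged from -0.84 to -0.35 with each array left out. Acta2 turned to 0.48 within date 2 and without knockout 2, was -1.10 without knockout 5, and Actg2 turned to 0.018 with arrays centred and scaled, 0.058 after cyclic loess and 0.024 after quantile normalisation. Over the table, 790 rows passed, with 338 rises and 452 falls, against 845 with 463 rises and 382 falls over all rows of the table. There were 458 (57 rises and 401 falls) among rows above the median level, fewer rows being tested. Array date as a block, centring and scaling, cyclic loess and quantile normalisation each gave 0 in limma, with 4149, 4088, 4504 and 4448 at an unadjusted p under 0.05. The count ranged from 0 to 10814 with each array left out. List rows passing, 8 in the main fit, were 4 over all rows of the table and 0 under the date block and the 3 scalings, and ranged from 0 to 97 with each array left out. In the fits without a knockout array the spread came from the wild types alone, whose 3 values were identical in 38.6% of rows. Counts from those fits are therefore no evidence of a difference. Why the other counts moved was not tested. The arrays' number, identical values and the lack of a detection call limit all of these.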
